A study of Mus musculus with 9 samples.

Results

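The genes described here are 41 genes that a cell needs to copy its DNA. They were chosen by gene symbol and looked up in the uterus libraries of mice given bisphenol B (BPB), bisphenol AF (BPAF) or corn oil. All 41 were found among the 34619 unique symbols that each library lists. They comprise the 6 subunits of the MCM2-7 helicase, 4 genes of origin licensing, 6 genes of helicase activation, 7 genes of the polymerases and primase, 8 genes of the sliding clamp, its loader and the lagging strand, 4 genes of nucleotide supply, 3 genes that control entry into S phase, and 3 genes of chromatin assembly and Cdt1 turnover. Of these, 40 reached 1 FPKM in at least 3 of the 9 libraries and entered the tests across 13743 genes. FPKM is the number of fragments scaled to gene length and to the library total. Dtl was the gene that did not reach this level.

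The mice were wild-type CD-1 (ICR) females, an outbred stock, bought at 7 to 8 weeks of age and kept for 1 week before dosing. One group received BPB and another BPAF, each by gavage for 28 days at a daily dose of 300 µg per kg body weight, and the control group received corn oil alone over the same time. All groups were fed an estrogen-free diet, and each group gave 3 uterus libraries, prepared with a stranded mRNA kit. Both compounds are bisphenols and differ at the carbon that joins their phenol rings. It bears methyl and ethyl groups in BPB and trifluoromethyl groups in BPAF. The labels do not give estrous stage or hour of collection, and nothing in them says that mice were pooled. Each replicate was taken to be a separate mouse, so that p-values measure the spread between these libraries.

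DNA replication begins at origins, where the origin recognition complex, CDC6 and CDT1 load the ring of MCM2 to MCM7 onto DNA in G1 phase. Cyclin E and its kinase then help to turn the ring into an active helicase together with CDC45 and the GINS complex, and polymerases copy the strands behind it on the sliding clamp PCNA. Transcription of many of these genes is driven by E2F factors and peaks around the start of S phase, so that their RNA in a tissue follows the share of cells that are dividing. In the mouse uterus that share changes with ovarian hormones, since estrogen drives the epithelium into S phase.

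Library totals recovered from the values were 12620147 to 15616778 reads, the smallest that fit. By these totals a replication gene had between 12 reads (Ccne1 in BPAF 3) and 3295 reads (Mcm6 in BPAF 2) in a library. Markers of uterine epithelium, stroma and smooth muscle were present in all 9 libraries, with mean log2(FPKM + 1) of 5.28 to 6.67, 3.88 to 5.48 and 6.97 to 10.67. Markers of the urothelium, the lining of the urinary tract, averaged 6.98 to 7.80 in BPB and 6.75 in BPAF 1. Their mean was only 0.44 and 0.80 in BPAF libraries 2 and 3 and between 0.48 and 1.11 in controls, so the BPB libraries and BPAF 1 stood apart from their tissue label. The mitochondrially encoded genes took 34.1% of the summed FPKM of control 3, the highest share of all libraries, against 14.0% and 14.1% in controls 1 and 2. Their share was 19.9% to 27.0% in BPB and 19.6% to 25.2% in BPAF, so every exposed library lay between control 3 and the other controls.

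The replication genes were high in BPAF 1 and BPAF 2 and low in BPAF 3, and no gene of the set passed the test in any comparison. Their mean log2(FPKM + 1) was 2.37, 1.96 and 1.91 in BPB libraries 1 to 3, 3.06, 3.66 and 1.92 in BPAF libraries 1 to 3, and 1.98, 2.73 and 2.16 in controls 1 to 3. BPAF 3 thus lay with the BPB libraries and with control 1, and control 2 lay above the other controls and above BPB. Summed over the 41 genes, BPAF 2 had 654 FPKM, BPAF 1 had 416 FPKM and BPAF 3 had 170 FPKM. In bulk tissue, more replicating cells and more of this RNA per cell cannot be told apart.

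**Figure D1:**
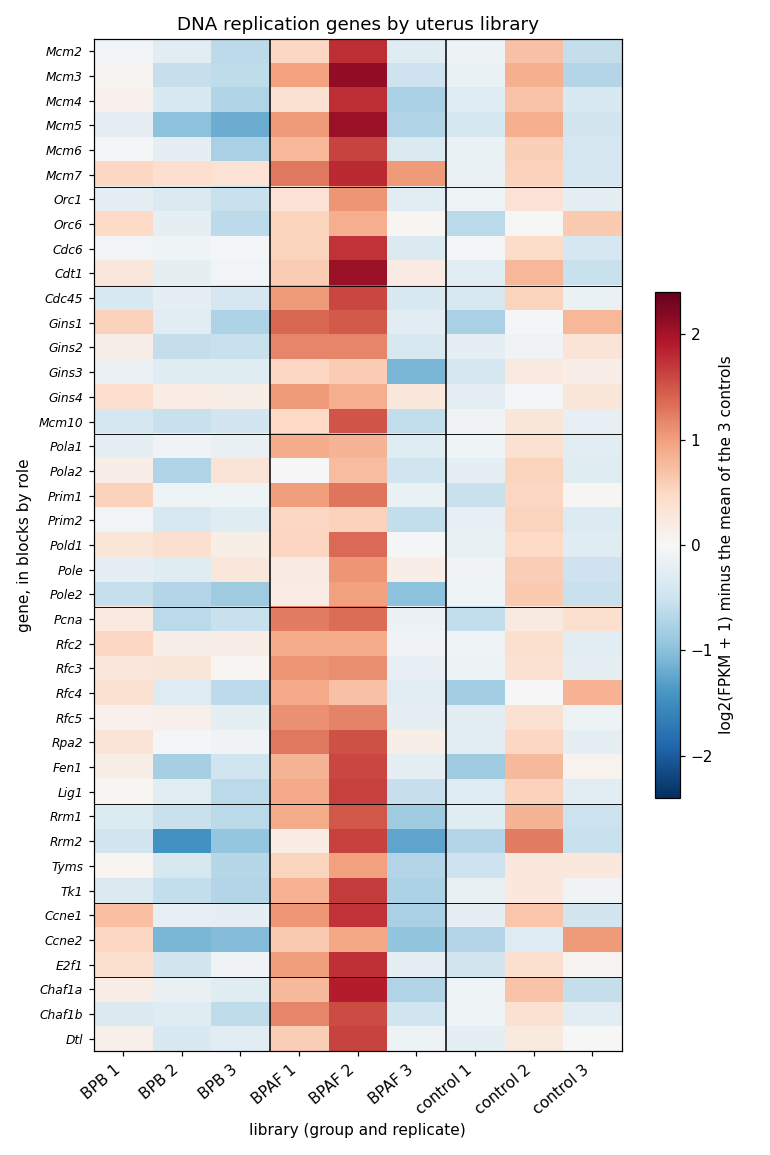
Each row is 1 of the 41 replication genes, in blocks by role, and each column is 1 library. The colour is log2(FPKM + 1) minus the mean of the 3 controls, red for higher and blue for lower. The BPAF 2 column is the reddest, where 35 of the 41 genes had their highest value, and the BPAF 3 column is mostly pale or blue.

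The order of the libraries was shared by nearly all genes of the set. BPAF 2 held the highest value of the 9 libraries for 35 of the 41 genes (85.4%), against 12.7% of all tested genes. BPAF 1 was highest for 5 genes (Gins2, Gins4, Pola1, Rfc2 and Rfc4) and control 3 for Ccne2. BPAF 3 was the lowest BPAF library for 41 of 41, against 37.0% of all tested genes. BPAF 2 was above all 3 controls for 39 genes and BPAF 1 for 31, against 34.5% and 38.7% of all tested genes. BPAF 3 was above all 3 controls only for Mcm7, and it was below all 3 controls for 19 genes, against 37.3% and 17.9% of all tested genes. Control 2 was the highest control for 33 genes and control 3 for the other 8, against 45.5% and 26.8% of all tested genes.

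The spread between BPAF libraries was wider for these genes than for the typical tested gene. The median SD of log2(FPKM + 1) over the set was 0.26 in BPB, 0.96 in BPAF and 0.48 in control, against 0.27, 0.35 and 0.42 for all tested genes. The highest BPAF library exceeded the lowest by a median of 4.70-fold over the set. The corresponding medians were 1.78-fold in BPB and 2.21-fold in control. Across the 9 libraries the range was narrowest for Gins4, at 2.47-fold, and widest for Ccne1, at 25.1-fold.

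In BPAF against control, limma called 0 of the 40 tested genes after Benjamini-Hochberg adjustment over all genes, where it called 0.0218% of all tested genes. An unadjusted p under 0.05 was reached by 3 of the set (Mcm7, Gins4 and Rpa2, all higher in BPAF), against 12.8% of all tested genes, or 10% counting only those higher in BPAF. The mean was higher in BPAF for 40 of 40, against 70.1% of all tested genes, and the median log2 difference was 0.65, against 0.21 for all tested genes. Under scaling by median ratios the mean was higher for 34. The median log2 difference of all tested genes was then -0.02, and their share with the higher mean was not counted. Only for Mcm7 did the BPAF and control libraries not overlap, where 14.3% of all tested genes had all BPAF libraries above all controls. Without BPAF 3 the median was 1.14 and 29 of the set had an unadjusted p under 0.05. Without BPAF 2 the median was 0.23 and 1 had, and without BPAF 1 it was 0.52 and 1 had. The mean was higher in BPAF for 31 without BPAF 2. Shares of all tested genes at this p were not counted with a library left out, where 1 to 10 of all tested genes were called.

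BPB and control libraries differed in tissue markers as well as in compound. Urothelial markers summed to 1503 to 2536 FPKM in BPB and to 3.41 to 73.3 FPKM in control. Smooth muscle markers summed to 7294 to 11621 FPKM in BPB and to 3523 to 5547 FPKM in control. Compound and tissue makeup were therefore not separated in BPB against control. In BPB against control the median log2 difference was -0.24, against 0.15 for all tested genes. The mean was lower in BPB for 31 of 40 and higher for 9, against 36.5% lower and 63.5% higher among all tested genes. Limma called 0 of 40 (2.55% of all tested genes) and 0 had an unadjusted p under 0.05 (17.4% of all tested genes). All BPB libraries were below all controls for Mcm10, Pole2, Tk1 and Chaf1b, where 6.10% of all tested genes showed this. Without control 2 the median was 0.01 and the mean was higher in BPB for 21. With a library left out, the median of all tested genes ran from 0.08 to 0.23. Their share with the higher mean was not counted in those fits.

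BPAF and BPB were given at the same dose and for the same time, but their libraries also differed in tissue markers. Urothelial markers summed to 1503 to 2536 FPKM in BPB, and to 1300, 3.04 and 10.9 FPKM in BPAF libraries 1 to 3. Smooth muscle markers summed to 7294 to 11621 FPKM in BPB and 1009 to 3358 FPKM in BPAF. Compound and tissue makeup were therefore not separated in this comparison. Limma called 0 of 40 in BPAF against BPB (0.24% of all tested genes), and 7 had an unadjusted p under 0.05, all higher in BPAF (6.75% of all tested genes, or 1.94% counting only those higher in BPAF). Only for Mcm7 did all BPAF libraries exceed all BPB libraries, as for 6.54% of all tested genes. Deviations from the group means correlated between same-numbered BPAF and BPB libraries, which does not settle whether the numbers pair them. With the replicate number as a block, 11 of the set had an unadjusted p under 0.05 with all 9 libraries (6.2% of all tested genes, 1.88% higher in BPAF). With only these 6 libraries 13 had (13% of all tested genes, 6.51% higher in BPAF). All of these were higher in BPAF, and neither fit called a gene of the set or any other tested gene, where limma without the block called 33 of all tested genes. The mean was higher in BPAF for 40 of 40, against 59.1% of all tested genes, with a median log2 difference of 0.77, against 0.07 for all tested genes. Without BPAF 3 the median was 1.33 and 33 had an unadjusted p under 0.05, and without BPAF 2 it was 0.41 and 0 had. Without BPAF 1, BPB 2 or BPB 3 in turn, 1 had. Shares of all tested genes at this p were not counted with a library left out, where 0 to 234 of all tested genes were called. The joint test of the 3 groups called 0 of 40 (0.844% of all tested genes), with 1 at an unadjusted p under 0.05, Mcm7 (15.1% of all tested genes). BPB against control and BPAF against control share their control libraries.

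**Figure D2:**
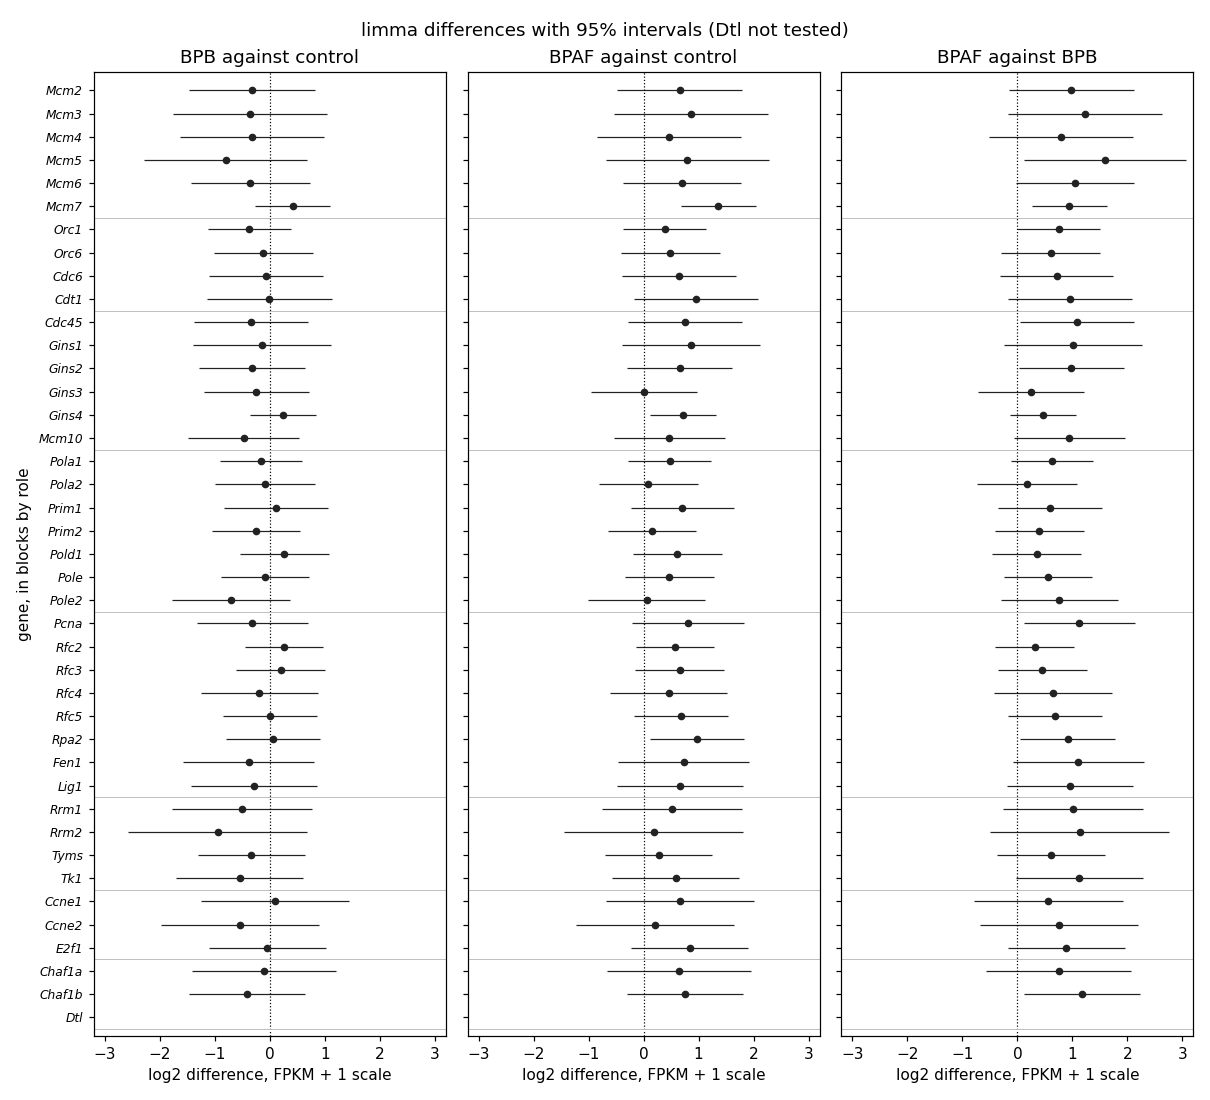
Points are limma log2 differences on the FPKM + 1 scale, and lines their 95% intervals, for the 40 tested genes (rows, in blocks by role) in BPB against control, BPAF against control and BPAF against BPB. In the middle and right panels all points lie at or to the right of 0, from 0.00 to 1.36 and from 0.17 to 1.59, and most intervals include 0.

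The MCM2-7 helicase unwinds DNA ahead of the polymerases, and its 6 subunits had mean levels over the 9 libraries of 5.77 FPKM (Mcm2) to 16.3 FPKM (Mcm4). Their summed level was 53.1, 39.4 and 31.3 FPKM in BPB libraries 1 to 3, 95.1, 202 and 41.9 FPKM in BPAF libraries 1 to 3, and 42.4, 87.8 and 36.1 FPKM in controls 1 to 3. BPAF 2 was the highest library for all 6. The median log2 difference of the 6 was -0.34 in BPB against control, 0.75 in BPAF against control and 1.01 in BPAF against BPB.

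Mcm7 had the smallest p of the set in BPAF against control, in BPAF against BPB and in the joint test. It had 8.16, 7.63 and 7.21 FPKM in BPB, 14.6, 21.3 and 12.2 FPKM in BPAF, and 4.82, 8.55 and 3.93 FPKM in control. All BPAF libraries, BPAF 3 included, lay above every BPB and control library, while BPB and control overlapped. The log2 difference in BPAF against control was 1.36 (SE 0.30, 95% interval 0.68 to 2.04), with limma's adjusted p at 0.230. In BPAF against BPB it was 0.94 (95% interval 0.26 to 1.62), and limma's adjusted p was 0.427. The joint test gave an adjusted p of 0.121 in limma. In GENCODE M21 the gene overlaps Cops6 and Ap4m1 on the opposite strand and hosts the microRNA genes Mir25, Mir93 and Mir106b. The sources used here do not say whether the counting used the strand, so reads of these genes could be shared.

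Mcm5 showed the largest log2 difference of the set in BPAF against BPB. It had 9.57, 5.24 and 4.40 FPKM in BPB, 24.1, 50.9 and 6.51 FPKM in BPAF, and 8.19, 21.6 and 8.03 FPKM in control. BPAF 3 lay inside the range of BPB and below all controls. The log2 difference was 1.59 in BPAF against BPB (SE 0.66, 95% interval 0.11 to 3.07; adjusted p of 0.655 in limma), 0.79 in BPAF against control (adjusted p of 0.627 in limma) and -0.80 in BPB against control (adjusted p of 0.594 in limma).

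Mcm4, the most abundant subunit RNA per length, had 14.2, 10.01 and 7.67 FPKM in BPB, 17.4, 47.7 and 7.25 FPKM in BPAF, and 10.4, 21.7 and 10.05 FPKM in control. Mcm2, the subunit on which the ring is thought to open together with MCM5, had 4.15, 3.48 and 2.50 FPKM in BPB, 6.61, 17.3 and 3.42 FPKM in BPAF, and 3.95, 7.82 and 2.61 FPKM in control. For both genes BPAF 2 stood alone at the top and the groups overlapped. The log2 difference of Mcm2 was 0.66 in BPAF against control (95% interval -0.48 to 1.80; adjusted p of 0.602 in limma) and 0.98 in BPAF against BPB (95% interval -0.16 to 2.12; adjusted p of 0.834 in limma). For Mcm4 the BPAF against control difference was 0.46 (adjusted p of 0.766 in limma), and without BPAF 2 it was -0.21.

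The ratio of BPAF 2 to BPAF 3 set Mcm7 apart from its partners in value. It was 1.75-fold for Mcm7, and for the other 5 subunits it ran from 4.25-fold (Mcm6) to 7.82-fold (Mcm5). BPAF 1 exceeded BPAF 3 by 1.20-fold for Mcm7, and by 1.93-fold (Mcm2) to 3.70-fold (Mcm5) for the others.

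**Figure D3:**
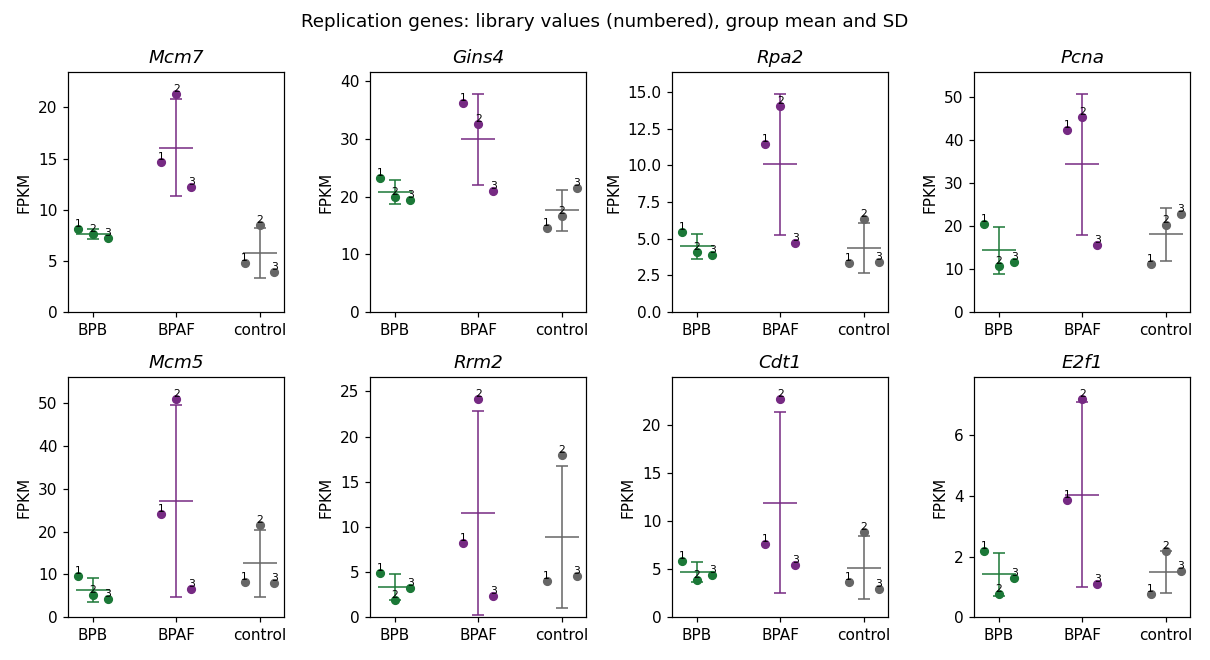
FPKM (vertical axes, each from 0) of 8 replication genes in the 3 BPB, 3 BPAF and 3 control libraries. Points are libraries, numbered by replicate, the long dash is the group mean and the bar its SD. BPAF 1 and 2 lie above BPAF 3 in every panel, and only for Mcm7 do all BPAF points lie above all others.

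Origin licensing is represented by Orc1 and Orc6 of the origin recognition complex, by Cdc6, and by Cdt1, which brings the helicase to the origin. Orc6 was the most abundant, with 22.5, 13.6 and 10.01 FPKM in BPB, 23.5, 29.8 and 16.6 FPKM in BPAF, and 9.82, 16.1 and 25.3 FPKM in control. Control 3 exceeded BPAF 1 and the groups overlapped. Orc6 differed in log2 by 0.48 in BPAF against control (adjusted p of 0.627 in limma) and -0.12 in BPB against control (adjusted p of 0.926 in limma).

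Cdt1 had 5.85, 3.86 and 4.39 FPKM in BPB, 7.59, 22.7 and 5.46 FPKM in BPAF, and 3.66, 8.90 and 2.93 FPKM in control. BPAF 2 was far above the rest, and control 2 exceeded BPAF 1. The log2 difference came to 0.95 in BPAF against control (SE 0.50, 95% interval -0.18 to 2.08; adjusted p of 0.449 in limma) and 0.96 in BPAF against BPB (adjusted p of 0.836 in limma). In BPB against control the adjusted p was 0.998 in limma.

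Orc1, the subunit of the origin recognition complex that comes and goes with the cell cycle, was weakly expressed. It had 0.746, 0.610 and 0.406 FPKM in BPB, 1.59, 3.26 and 0.696 FPKM in BPAF, and 0.887, 1.59 and 0.737 FPKM in control. BPAF 3 lay below all controls. Limma gave a log2 difference of 0.75 in BPAF against BPB (95% interval -0.01 to 1.504; adjusted p of 0.744 in limma). Cdc6, the loader that acts with CDT1, was likewise weak and had its highest value, 4.96 FPKM, in BPAF 2, 11.8-fold that of BPAF 3 at 0.420 FPKM.

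Since the genes varied together across libraries and E2F factors are known to drive many of them, their promoters were read for E2F letters. RefSeq promoter sequences of GRCm38.p6, covering 250 bases before to 50 bases after a transcription start, matched 33 of the 41 genes by symbol with 37 promoters. The motifs searched on both strands were TTTGGCGC, TTTCCCGC, TTTCGCGC and TTTGCCGC for E2F, and CCAAT, the letters read by the factor NF-Y. An E2F octamer stood in the promoters of 14 of the 33 genes (42.4%), against 440 of 9959 tested genes with a promoter (4.42%) and 2.26% of all promoters in the table. Among 16 genes of mitosis with a promoter, 1 held an octamer. CCAAT stood in 57.6% of the replication genes, 87.5% of the mitosis genes and 42.3% of the tested genes. A match describes the letters and not binding. The 4 promoters below are shown because Mcm7 and Mcm5 had the largest log2 differences in BPAF against control and in BPAF against BPB, Mcm6 the most octamers and Cdc6 the widest BPAF range among licensing genes. They lie at chr8:75109259-75109558 on the plus strand (Mcm5), chr1:128359656-128359955 on the minus strand (Mcm6), chr5:138171834-138172133 on the minus strand (Mcm7) and chr11:98907901-98908200 on the plus strand (Cdc6). Each is written 5′ to 3′ along its gene, with E2F octamers on either strand in capitals.
Mcm5: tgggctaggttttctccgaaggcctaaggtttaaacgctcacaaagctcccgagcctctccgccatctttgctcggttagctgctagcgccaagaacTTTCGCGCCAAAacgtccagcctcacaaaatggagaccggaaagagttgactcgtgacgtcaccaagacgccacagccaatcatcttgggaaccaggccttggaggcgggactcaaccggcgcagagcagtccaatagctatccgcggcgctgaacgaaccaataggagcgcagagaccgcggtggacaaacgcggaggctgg
Mcm6: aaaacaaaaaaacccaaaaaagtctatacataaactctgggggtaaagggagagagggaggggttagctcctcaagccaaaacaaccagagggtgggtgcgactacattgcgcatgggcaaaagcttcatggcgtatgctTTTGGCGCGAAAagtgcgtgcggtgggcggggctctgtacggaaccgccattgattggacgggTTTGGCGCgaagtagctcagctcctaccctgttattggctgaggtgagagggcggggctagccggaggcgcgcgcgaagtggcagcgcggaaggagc
Mcm7: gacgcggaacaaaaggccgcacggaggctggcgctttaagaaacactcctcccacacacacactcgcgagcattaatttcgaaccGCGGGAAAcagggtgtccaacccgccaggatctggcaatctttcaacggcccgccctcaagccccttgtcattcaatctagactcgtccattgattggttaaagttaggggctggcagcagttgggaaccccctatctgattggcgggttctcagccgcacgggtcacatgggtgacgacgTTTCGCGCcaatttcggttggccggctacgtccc
Cdc6: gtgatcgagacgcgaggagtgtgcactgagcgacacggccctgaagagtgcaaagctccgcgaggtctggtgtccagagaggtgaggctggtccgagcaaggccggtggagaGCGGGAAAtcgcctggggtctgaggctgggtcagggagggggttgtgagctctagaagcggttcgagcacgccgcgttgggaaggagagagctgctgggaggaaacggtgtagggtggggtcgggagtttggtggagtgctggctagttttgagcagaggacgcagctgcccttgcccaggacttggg
Octamers that overlap run together, as they do in Mcm5, where the capitals hold 2, and in Mcm6, where 3 octamers form 2 runs. A further Mcm7 promoter of the table, at chr5:138171217-138171516 on the minus strand, held none. No match says only that these letters are not in that window.

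Helicase activation is represented by Cdc45 and the 4 GINS genes, whose products complete the working helicase with MCM2-7, and by Mcm10, which helps to start it. Gins4 was the most abundant gene of the set, at a mean of 22.8 FPKM over the 9 libraries. It had 23.3, 19.9 and 19.4 FPKM in BPB, 36.1, 32.6 and 21.0 FPKM in BPAF, and 14.6, 16.7 and 21.5 FPKM in control. BPAF 1 and 2 lay above all other libraries, and BPAF 3 lay just under control 3. The log2 difference in BPAF against control was 0.71 (SE 0.27, 95% interval 0.11 to 1.31), with limma's adjusted p at 0.333, and in BPAF against BPB it was 0.47 (95% interval -0.13 to 1.07; adjusted p of 0.888 in limma).

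The other 5 genes of helicase activation were lower and varied more. Cdc45 had 1.69, 1.93 and 1.64 FPKM in BPB, 6.01, 9.56 and 1.69 FPKM in BPAF, and 1.66, 4.03 and 2.12 FPKM in control, so BPAF 3 matched BPB 1. It was 1 of the 7 genes at an unadjusted p under 0.05 in BPAF against BPB, with Gins2, a further GINS subunit, and neither passed after adjustment. Mcm10 reached 4.44 FPKM in BPAF 2, 16.8-fold above BPAF 3. Gins3 had the smallest log2 difference of the set in BPAF against control, 0.00 on the log2(FPKM + 1) scale, with means of 5.31 FPKM in BPAF and 4.66 FPKM in control.

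The polymerases and primase comprise Pola1 and Pola2 of polymerase alpha, Prim1 and Prim2 of the primase that lays the first RNA, Pold1 of polymerase delta, and Pole and Pole2 of polymerase epsilon. Pola2 was the most abundant, with 10.4, 5.17 and 11.6 FPKM in BPB, 9.12, 16.0 and 6.35 FPKM in BPAF, and 7.62, 13.8 and 7.28 FPKM in control. The groups overlapped throughout and the log2 difference was 0.09 in BPAF against control (95% interval -0.82 to 0.99) and 0.17 in BPAF against BPB (95% interval -0.73 to 1.07), with adjusted p of 0.947 and 0.998 in limma.

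Pole2, the small subunit of polymerase epsilon, had the smallest p of the set in BPB against control. It had 2.51, 2.15 and 1.85 FPKM in BPB, 4.78, 9.21 and 1.59 FPKM in BPAF, and 3.79, 6.94 and 2.57 FPKM in control. All BPB libraries lay below all controls, by a small margin between BPB 1 and control 3, while BPAF libraries spanned both. The log2 difference in BPB against control was -0.70 (SE 0.48, 95% interval -1.77 to 0.36; adjusted p of 0.502 in limma). Over the 7 genes the median log2 difference was -0.09 in BPB against control, 0.47 in BPAF against control and 0.55 in BPAF against BPB.

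Pcna encodes the sliding clamp, the RFC genes its loader, Rpa2 a subunit of the complex that coats single-stranded DNA, and Fen1 and Lig1 the nuclease and ligase that finish the lagging strand. Pcna had 20.6, 10.7 and 11.7 FPKM in BPB, 42.2, 45.3 and 15.6 FPKM in BPAF, and 11.2, 20.3 and 22.9 FPKM in control. BPAF 1 and 2 were close to each other and above every other library, and BPAF 3 lay inside the control range. The log2 difference was 1.12 in BPAF against BPB (SE 0.45, 95% interval 0.11 to 2.13; adjusted p of 0.627 in limma) and 0.81 in BPAF against control (95% interval -0.20 to 1.82; adjusted p of 0.471 in limma).

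Rpa2 had 5.46, 4.07 and 3.89 FPKM in BPB, 11.5, 14.0 and 4.70 FPKM in BPAF, and 3.33, 6.36 and 3.42 FPKM in control. BPAF 1 and 2 again stood above all others, and BPAF 3 lay within both the BPB and the control range. Rpa2 differed in log2 by 0.97 in BPAF against control (SE 0.38, 95% interval 0.12 to 1.83; adjusted p of 0.351 in limma) and 0.91 in BPAF against BPB (adjusted p of 0.667 in limma).

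Rfc3, a subunit of the clamp loader, had 2.80, 2.83 and 2.21 FPKM in BPB, 5.51, 5.76 and 1.72 FPKM in BPAF, and 1.87, 3.01 and 1.65 FPKM in control. The log2 difference came to 0.66 in BPAF against control (95% interval -0.15 to 1.47; adjusted p of 0.465 in limma) and 0.45 in BPAF against BPB (adjusted p of 0.979 in limma). For the RFC genes BPAF 1 and BPAF 2 were nearly level, as they were for Pcna, whereas BPAF 2 exceeded BPAF 1 for Fen1 (10.6 and 5.75 FPKM) and Lig1 (20.5 and 12.0 FPKM).

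**Figure D4:**
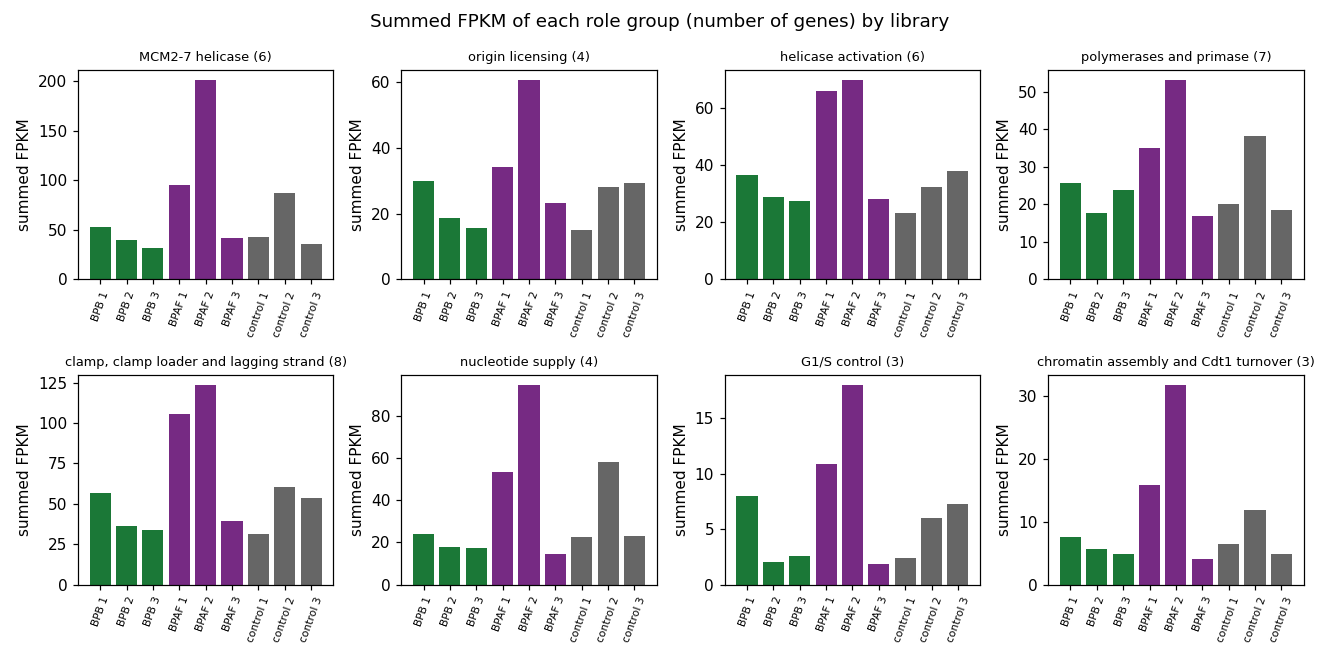
Bars are the summed FPKM of each role group (panel, with its number of genes) in each library, coloured by group, with every axis from 0. In all 8 panels BPAF 2 has the tallest bar and BPAF 3 the shortest BPAF bar. The ratio of BPAF 2 to BPAF 1 is largest in the MCM2-7 panel, at 202 against 95.1 FPKM, and smallest in the helicase activation panel, at 70.1 against 66.0 FPKM.

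Nucleotide supply is represented by Rrm1 and Rrm2, the subunits of ribonucleotide reductase, by Tyms, the thymidylate synthase, and by Tk1, the thymidine kinase of S phase. Rrm1 had 14.9, 12.9 and 11.8 FPKM in BPB, 36.2, 55.2 and 10.1 FPKM in BPAF, and 15.4, 34.1 and 12.97 FPKM in control. Rrm2 had 4.88, 1.96 and 3.29 FPKM in BPB, 8.20, 24.2 and 2.37 FPKM in BPAF, and 4.01, 17.9 and 4.62 FPKM in control. For both, BPAF 2 and control 2 were high and BPAF 3 was below every control. The log2 difference of Rrm2 was -0.95 in BPB against control (95% interval -2.58 to 0.69; adjusted p of 0.562 in limma) and 1.13 in BPAF against BPB (95% interval -0.50 to 2.76; adjusted p of 0.937 in limma). In BPAF against control it was 0.18, and -0.54 without BPAF 2. Rrm1 differed by 1.01 in BPAF against BPB (adjusted p of 0.877 in limma). Over the 4 genes the median log2 difference was -0.52 in BPB against control, 0.39 in BPAF against control and 1.07 in BPAF against BPB.

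Entry into S phase is represented by the E-type cyclins Ccne1 and Ccne2 and by the transcription factor E2f1. E2f1 had 2.18, 0.779 and 1.29 FPKM in BPB, 3.84, 7.17 and 1.08 FPKM in BPAF, and 0.778, 2.17 and 1.54 FPKM in control. Ccne1 had 2.50, 0.835 and 0.814 FPKM in BPB, 3.32, 5.998 and 0.239 FPKM in BPAF, and 0.812, 2.36 and 0.548 FPKM in control. For both, BPAF 1 and 2 exceeded every other library, and for Ccne1 BPAF 3 was the lowest of all. The log2 difference in BPAF against control was 0.84 for E2f1 (95% interval -0.22 to 1.91; adjusted p of 0.472 in limma) and 0.66 for Ccne1 (95% interval -0.69 to 2.01; adjusted p of 0.661 in limma).

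Ccne2 departed from the order of the other genes, with 3.29, 0.428 and 0.489 FPKM in BPB, 3.70, 4.82 and 0.576 FPKM in BPAF, and 0.860, 1.46 and 5.16 FPKM in control. Control 3 was its highest library, and BPB 1 exceeded the lowest BPB library by 7.70-fold, the widest BPB range of the set. In the annotation Ccne2 overlaps Ints8 on the opposite strand.

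Chromatin assembly factor 1, which places histones on new DNA, is represented by Chaf1a and Chaf1b. Chaf1b had 1.18, 1.27 and 0.830 FPKM in BPB, 5.29, 7.22 and 0.996 FPKM in BPAF, and 1.58, 2.57 and 1.33 FPKM in control. All BPB libraries and BPAF 3 lay below all controls, and BPAF 1 and 2 lay above them. Limma gave a log2 difference of 1.17 in BPAF against BPB (SE 0.47, 95% interval 0.12 to 2.22; adjusted p of 0.623 in limma), 0.75 in BPAF against control (adjusted p of 0.510 in limma) and -0.42 in BPB against control (adjusted p of 0.717 in limma). Chaf1a had 5.57, 4.20 and 3.76 FPKM in BPB, 9.10, 20.5 and 2.55 FPKM in BPAF, and 4.45, 8.37 and 2.92 FPKM in control, with a log2 difference of 0.65 in BPAF against control (adjusted p of 0.660 in limma). Dtl, whose product directs the destruction of CDT1 in S phase, was not tested. It had 0.791, 0.286 and 0.362 FPKM in BPB, 1.49, 4.05 and 0.509 FPKM in BPAF, and 0.396, 0.945 and 0.659 FPKM in control, and so followed the order of the tested genes with BPAF 2 at the top.

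Other genes of the same processes, listed beside the 41, gave 0 called genes in limma as well. Of 26 tested further replication factors, the mean was higher in BPAF than in control for 24, with a median log2 difference of 0.49, and 5 had an unadjusted p under 0.05 (Orc3, Mcm8, Pold4, Donson and Rnaseh2a), each with all BPAF libraries above all controls. Among all tested genes, 70.1% had the higher mean in BPAF, 10% had an unadjusted p under 0.05 and were higher, and 14.3% had all BPAF libraries above all controls. Their mean log2(FPKM + 1) was 3.05, 3.23 and 2.51 in BPAF libraries 1 to 3 and 2.25, 2.62 and 2.50 in controls 1 to 3, so BPAF 3 stood nearer to its group than in the 41 genes. Of 6 further genes of nucleotide supply, 5 had the higher mean in BPAF than in control and 0 had an unadjusted p under 0.05. Of 16 further genes of S phase entry, 14 had the higher mean, and Rbl2 (higher in BPAF) and Cdkn1a (lower in BPAF) had an unadjusted p under 0.05, against 70.1% and 12.8% of all tested genes.

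Ccnd1 and Cdkn1a act before S phase. Ccnd1 encodes a D-type cyclin that growth signals raise, and Cdkn1a encodes the kinase inhibitor p21. Ccnd1 had 45.0, 40.5 and 63.4 FPKM in BPB, 20.8, 54.4 and 25.3 FPKM in BPAF, and 18.2, 33.5 and 16.8 FPKM in control. All BPB libraries exceeded all controls, as for 2682 of the 13743 tested genes. The log2 difference of Ccnd1 was 1.13 (95% interval 0.22 to 2.03; adjusted p of 0.187 in limma). Cdkn1a had 13.2, 15.4 and 18.8 FPKM in BPB, 9.51, 9.58 and 1.99 FPKM in BPAF, and 15.4, 16.3 and 12.9 FPKM in control. All BPAF libraries lay below all BPB and all control libraries. Among all tested genes, 344 had all BPAF libraries below all controls and 881 had them below all BPB libraries. BPAF 3, low in the replication genes, was also the lowest in Cdkn1a. The log2 difference was -1.19 in BPAF against control (95% interval -2.20 to -0.18; adjusted p of 0.340 in limma) and -1.27 in BPAF against BPB (adjusted p of 0.500 in limma).

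Genes listed under mitosis, with Ccna2 of S and G2 phase among them, were also high in BPAF 1 and 2 and low in BPAF 3. They were low in all BPB libraries. The 20 listed genes had a mean log2(FPKM + 1) of 2.21, 1.65 and 1.49 in BPB libraries 1 to 3, 3.14, 3.63 and 1.65 in BPAF libraries 1 to 3, and 2.37, 3.28 and 3.05 in controls 1 to 3. In BPB against control the mean was lower in BPB for 20 of 20, against 36.5% of all tested genes. The median log2 difference of the list was -1.12, against -0.24 for the replication genes. In this list 0 genes were called, 8 had an unadjusted p under 0.05 and 14 had all BPB libraries below all controls, against 2.55%, 17.4% and 6.1% of all tested genes. The 8 were all lower in BPB, and 632 of the 13743 tested genes had an unadjusted p under 0.05 and were lower. In BPAF against control the median of the mitosis list was -0.07, against 0.65 for the replication genes. Tissue markers also differed between BPB and control, and their part in the mitosis genes was not tested.

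The mean of the replication genes minus that of the mitosis genes was 0.17, 0.31 and 0.42 in BPB, -0.08, 0.03 and 0.27 in BPAF, and -0.39, -0.55 and -0.88 in control. All 6 exposed libraries lay above all 3 controls in this difference, which was computed after the values had been seen and was not tested. Mki67, the gene of the proliferation antigen Ki-67, had 8.96, 4.88 and 4.53 FPKM in BPB, 11.8, 25.5 and 5.24 FPKM in BPAF, and 11.3, 21.0 and 35.2 FPKM in control. Its log2 difference was -1.64 in BPB against control (95% interval -2.88 to -0.40; adjusted p of 0.165 in limma) and -0.74 in BPAF against control (adjusted p of 0.588 in limma). Top2a, the topoisomerase that untangles sister chromatids, had 6.04, 4.01 and 3.38 FPKM in BPB, 19.5, 25.7 and 5.26 FPKM in BPAF, and 8.16, 18.6 and 7.34 FPKM in control. Ccna2, cyclin A2 of S and G2 phase, had 4.74, 2.70 and 2.32 FPKM in BPB, 6.81, 17.4 and 1.97 FPKM in BPAF, and 4.83, 12.9 and 7.69 FPKM in control. For all 3 genes the BPB libraries lay below every control, and no difference passed the test.

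**Figure D5:**
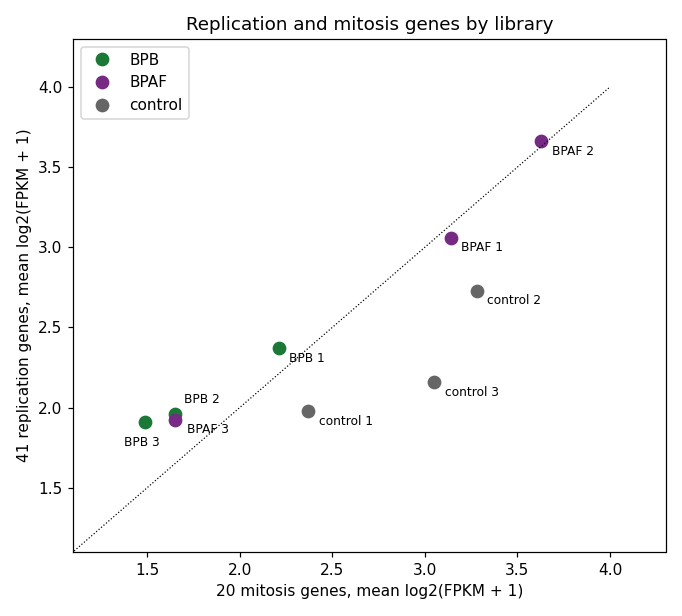
Each point is a library, at the mean log2(FPKM + 1) of the 20 mitosis genes (horizontal) and of the 41 replication genes (vertical), and the dotted line marks equal means. The 3 controls lie below the line by 0.39 to 0.88, and the 6 exposed libraries lie between 0.08 below and 0.42 above it.

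Cell-type markers moved between the same libraries. In BPAF 1, 2 and 3, epithelial markers had a mean log2(FPKM + 1) of 6.30, 6.67 and 5.28, smooth muscle markers 8.62, 8.55 and 6.97, and stromal markers 4.87, 4.31 and 5.48. BPAF 3, low in the replication genes, was thus the lowest of the BPAF libraries in epithelial and muscle markers and the highest in stromal markers. The summed FPKM of the 8 epithelial markers was 884 to 1475 in BPB, 623 to 1486 in BPAF and 945 to 1531 in control, and that of the 6 muscle markers was 7294 to 11621 in BPB, 1009 to 3358 in BPAF and 3523 to 5547 in control. The summed FPKM of the 7 stromal markers was 147 to 216 in BPB, 147 to 361 in BPAF and 129 to 246 in control. Urothelial markers summed to 1503 to 2536 FPKM in BPB, 3.04 to 1299.9 FPKM in BPAF and 3.41 to 73.3 FPKM in control, and were lowest in BPAF 2, where the replication genes were highest. No marker of these 4 lists was at 0 in all 9 libraries. The part of tissue makeup in the replication genes was not tested.

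Control 3 was set against the other controls by gene length. Length here is the smallest that gave whole reads in all 9 libraries, and it need not be that of the mRNA. Its log2 value minus the mean of controls 1 and 2 had a median of 0.25 for the 9 replication genes shorter than 3000 bases and of -0.39 for the 32 longer ones, against 0.00 and -0.41 for all tested genes of these lengths. Across the 41 genes the correlation of this difference with length was weak (Pearson's r -0.23, Spearman's rho -0.07), against -0.29 and -0.28 over all tested genes with a length, as a description across genes. Of the 8 genes that were highest among controls in control 3, Orc6, Gins1, Gins4 and Rfc4 had recovered lengths under 3000 bases. Gins2, Pcna, Tyms and Ccne2 had longer recovered lengths. Without control 3 the median log2 difference of the set was -0.27 in BPB against control and 0.52 in BPAF against control.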

How the data were processed

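Groups and replicate numbers were taken from the sample titles, and all 9 uterus libraries were used. The deposited files give gene symbols and values and name no unit. They were taken as FPKM that the authors had computed, since multiplication by length turned the values into whole reads. For genes to which GENCODE M21 assigns 1 transcript, 82.9% to 86.2% of values came within 0.01 of a whole read, at library totals of 12620147 to 15616778 reads. Reads and gene lengths of the 41 members were recovered in the same way. The smallest total and the smallest length that gave whole reads were taken, and multiples of these would fit as well. The aligner, counting tool, build and use of strand were not given in the sources used here.

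Of 34745 lines per file, 126 with 1 of 59 repeated symbols were left out. The tests took genes that reached 1 FPKM in 3 libraries, on log2(FPKM + 1), in limma 3.58.1 (statmod 1.5.0, R 4.3.3). Trend and robust options were on, group was the only term, and all libraries shared 1 fit. The log2 scale with a pseudocount of 1 understates changes of weak genes. P-values were two-sided, adjusted by the Benjamini-Hochberg method over 13743 genes, and called under 0.05.

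The members and lists were chosen with earlier results of these data known. Full values are given for the 5 members with the smallest p per comparison, the most abundant member of each role group, Pcna, Mcm2, Ccne1 and E2f1, and for Mki67, Top2a, Ccna2, Ccnd1 and Cdkn1a. Cdc45, Ccne2 and Dtl and single values of other members were added after their values were seen. The rule would also have named any related gene that was called, and none was. Alternatives were pseudocounts of 0.1 and 0.01, other filters, no trend, no robust estimation, a replicate block, other scalings, only the 6 libraries of a comparison, and each library left out. The labels tie the replicate numbers to no shared litter, batch or day. Deviations from the group means correlated in all 3 same-numbered pairs of BPAF and BPB libraries (r of 0.339 to 0.484, against -0.337 to -0.072 in 6 pairs with different numbers). Deviations within a group cancel out, so the latter range is no independent support. Pairs of BPB and control with different numbers reached r of 0.448. The correlations thus do not settle whether the numbers pair BPAF and BPB libraries, and the block is only an alternative. Same-numbered pairs of either group with control had r of -0.399 to -0.079. A block on the 6 BPAF and BPB libraries was added after the data had been seen. Tables and figures were made with Python 3.11.15, pandas 2.3.3 and matplotlib 3.10.9.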

Additional observations from a re-analysis of the deposited data

How the results depend on the processing

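No replication gene was called in any of the 20 alternatives, where the lowest adjusted p of a member was 0.0692 in limma (the joint test without BPAF 3). The number at an unadjusted p under 0.05 moved more: with only the 6 libraries of a comparison it was 1 in BPB against control, 1 in BPAF against control and 3 in BPAF against BPB, and under scaling by median ratios it was 1 in BPAF against control. Leaving out each library in turn gave 0 to 1 in BPB against control, 1 to 29 in BPAF against control, 0 to 33 in BPAF against BPB and 1 to 30 in the joint test. The highest numbers came without BPAF 3, except in BPB against control, where the 1 came without control 2. Shares of all tested genes at this p were not counted in these fits. In the joint test they called 0 to 310 of all tested genes. The higher mean in BPB was found for 5 members under median ratios and for 5 to 21 with a library left out. With the replicate block, 11 members in BPAF against BPB and 5 in the joint test had an unadjusted p under 0.05, and with the block on only the 6 BPAF and BPB libraries, an alternative chosen after seeing the data, 13 had. The block changed no call of a member. Scaling by median ratios moved the median of all genes to -0.04 in BPB and -0.02 in BPAF against control, and that of the members to -0.43 and 0.41. Of 1392 recomputed values of 24 named genes, 42 turned in direction, in 17 gene and comparison pairs, none past the threshold. Under median ratios the log2 difference in BPB against control was -0.13 for Rpa2, -0.0044 for Ccne1 and -0.15 for Cdkn1a, and in BPAF against control -0.18 for Pole2, -0.0724 for Rrm2 and -0.18 for Pola2. Cdt1 in BPB against control was 0.0153 and 0.0181 at pseudocounts of 0.1 and 0.01. With a library left out, values in BPB against control ran from -0.27 to 0.40 for Cdt1, -0.0709 to 0.31 for Rpa2, -0.21 to 0.44 for Ccne1, -0.048 to 0.19 for Cdkn1a, -0.54 to 0.0111 for Mcm4, -0.28 to 0.235 for Pola2, -0.27 to 0.15 for E2f1, -0.39 to 0.24 for Chaf1a, -0.61 to 0.0314 for Mcm2 and -0.44 to 0.20 for Orc6. In BPAF against control they ran from -0.41 to 0.58 for Pole2, -0.54 to 0.91 for Rrm2, -0.24 to 0.37 for Pola2, -0.89 to 0.43 for Ccna2, -0.21 to 1.08 for Mcm4 and -0.0154 to 1.03 for Top2a, and in BPAF against BPB from -0.15 to 0.45 for Pola2. The causes were not tested.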

Other observations

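The neighbours of Mcm7 on the opposite strand were read because Mcm7 was the replication gene that stayed high in BPAF 3, a choice made after the values had been seen. Cops6, a subunit of the COP9 signalosome, had 29.4, 18.6 and 19.7 FPKM in BPB, 34.0, 23.4 and 17.4 FPKM in BPAF, and 19.6, 22.3 and 33.9 FPKM in control, with BPAF 3 the lowest library. Ap4m1, a subunit of the AP-4 adaptor complex, had 5.996, 9.25 and 8.61 FPKM in BPB, 9.86, 9.69 and 9.67 FPKM in BPAF, and 4.80, 6.36 and 3.69 FPKM in control. All 3 BPAF libraries lay above all others for Ap4m1, as they did for Mcm7. Whether reads of these genes were shared with Mcm7 was not tested.

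The other marker lists showed no single order that matched the replication genes. Adipocyte markers had a mean log2(FPKM + 1) of 2.77 to 5.38 in BPB, 0.20 to 4.83 in BPAF and 2.61 to 3.07 in control, with BPAF 2 the lowest. Macrophage markers had 3.24 to 4.32 in BPB, 2.58 to 5.25 in BPAF and 3.68 to 4.87 in control, with BPAF 2 again the lowest. Neutrophil markers had 0.04 to 0.43 in BPB, 0.18 to 0.71 in BPAF and 1.04 to 2.23 in control. Markers of B and plasma cells had 0.54 to 0.79 in BPB, 0.82 to 1.58 in BPAF and 0.57 to 1.31 in control. Markers of T and natural killer cells had 0.51 to 0.82 in BPB, 0.59 to 1.46 in BPAF and 0.51 to 0.94 in control, and erythroid markers 1.70 to 2.29 in BPB, 0.56 to 2.06 in BPAF and 1.03 to 2.21 in control. Their part in the replication genes was not tested.

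Among the genes of S phase entry, Ccnd2, a cyclin D, had 7.08, 9.02 and 10.3 FPKM in BPB, 3.36, 2.61 and 2.74 FPKM in BPAF, and 3.90, 5.26 and 1.43 FPKM in control. All BPB libraries lay above all others. Among the 13743 tested genes, 2682 had all BPB libraries above all controls and 881 had them above all BPAF libraries. The log2 difference of Ccnd2 was 1.205 in BPB against control (adjusted p of 0.103 in limma) and -1.32 in BPAF against BPB (adjusted p of 0.274 in limma). Ccnd2 was named after its values had been seen.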
